A study of Arabidopsis thaliana with 12 samples.

Results

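Chloroplasts capture light with protein complexes of mixed origin: the reaction centre cores are encoded in the plastid, while the light-harvesting antenna and many further subunits are encoded in the nucleus. The genes described here are 41 nuclear Arabidopsis genes, taken by locus identifier from the table of 33197 identifiers used. They comprise 20 antenna genes, 12 genes of photosystem I (PSI) and 9 genes of photosystem II (PSII). The antenna genes divide into 6 of the PSI antenna (LHCA), 9 of the major PSII antenna (LHCB1, LHCB2 and LHCB3) and 5 of the minor PSII antenna (LHCB4, LHCB5 and LHCB6). The PSII genes divide into 5 of the oxygen-evolving complex and 4 of small membrane subunits. All 41 were in the table once and passed the filter on low values.

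Transcripts were measured by RNA sequencing of whole seedlings, 10 days old, of 3 genotypes: wild type (WT, Col-0 per the labels), the mutant asr3-1, and the transgenic line OX9, in which the 35S promoter, active in most plant tissues, drives ASR3 with an HA tag. ASR3 is a trihelix transcription factor, and OX9 is a single transgenic line. Each genotype was sampled without flg22 and after 30 min with flg22, in seedlings kept in water overnight. The peptide flg22 is the part of bacterial flagellin that the plant receptor FLS2 perceives. The labels name no untreated or mock-treated group at 30 min. The part of elapsed time or handling in any difference between libraries with and without flg22 was therefore not tested. The 6 groups had 2 libraries each, from repeat 1 and repeat 2 of the experiment, and each library pools RNA of 2 biological replicates, so 12 libraries in all. The design text gives the dose of flg22 as 100 nM and the treatment protocol as 100 mM, and the data cannot tell which is right.

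Antenna proteins bind chlorophyll and pass excitation to the reaction centres. LHCB1, LHCB2 and LHCB3 form the trimers of the major antenna, and phosphorylation of LHCB2 lets trimers move to PSI in state transitions. LHCB4, LHCB5 and LHCB6 are monomers that join trimers to the PSII core. PSII oxidises water with the help of PSBO, PSBP and PSBQ at its lumenal face, and PSI hands electrons to ferredoxin at its stromal face. Transcripts of these genes are among the most abundant in green tissue, are raised by light and follow the circadian clock, and CCA1, a clock factor, was isolated for its binding to an antenna gene promoter.

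Values are FPKM, fragments per kilobase of transcript scaled to library depth, and no read counts are given. The spacing of the lowest values puts the libraries on a scale of 6220000 to 11620000 reads, an estimate that entered no test. ASR3 stood at 384 to 590 FPKM in OX9, 6.24 to 9.59 in WT and 2.5 to 6.58 in asr3-1, so the mutant and WT overlap on this transcript, and where the mutation lies in it was not analysed here. The libraries of the repeats stood apart: 1 metallothionein gene, MT1A, held 1.46 to 1.78% of the summed FPKM in repeat 1 and 10.2 to 16.1% in repeat 2. Of the 20753 genes tested, 5782 were higher and 5153 lower in repeat 2. The sum of 17 root marker genes was 1457 to 2067 FPKM in repeat 1 and 905.7 to 1680 in repeat 2, and no root marker was at 0 in any library; whole seedlings include roots. The 20 plastid-encoded photosystem genes are not analysed here. In bulk tissue, fewer green cells and less of a transcript per cell cannot be told apart.

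The 250 bases before the annotated gene start are shown for 4 antenna genes on which the results turn: the LHCB2 paralogues, which differed in direction between the repeats, and LHCB6, which differed by more than most antenna genes. They were read from the RefSeq sequence of TAIR10.1 and are printed 5′ to 3′ on the gene's own strand. Capitals mark matches to the motifs searched on both strands: the I-box core with the letters GATAAG, the G-box with CACGTG, the motif CCAATC, the evening element AAATATCT and the motif TATAAA.
LHCB2.1: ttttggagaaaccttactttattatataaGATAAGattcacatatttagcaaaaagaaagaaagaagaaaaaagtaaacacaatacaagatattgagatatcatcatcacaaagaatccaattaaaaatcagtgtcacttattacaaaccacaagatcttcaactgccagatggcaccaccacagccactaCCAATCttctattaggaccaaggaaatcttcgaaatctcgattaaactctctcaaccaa
LHCB2.2: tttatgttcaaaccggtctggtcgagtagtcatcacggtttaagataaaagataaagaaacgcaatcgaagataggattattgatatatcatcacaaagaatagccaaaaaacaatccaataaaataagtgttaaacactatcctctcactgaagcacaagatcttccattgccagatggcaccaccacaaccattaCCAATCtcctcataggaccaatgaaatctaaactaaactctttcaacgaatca
LHCB2.3: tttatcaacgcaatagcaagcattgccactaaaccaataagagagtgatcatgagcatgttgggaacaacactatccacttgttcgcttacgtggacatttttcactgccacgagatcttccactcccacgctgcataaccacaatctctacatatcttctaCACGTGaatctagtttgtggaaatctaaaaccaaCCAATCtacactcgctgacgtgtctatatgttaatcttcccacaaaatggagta
LHCB6: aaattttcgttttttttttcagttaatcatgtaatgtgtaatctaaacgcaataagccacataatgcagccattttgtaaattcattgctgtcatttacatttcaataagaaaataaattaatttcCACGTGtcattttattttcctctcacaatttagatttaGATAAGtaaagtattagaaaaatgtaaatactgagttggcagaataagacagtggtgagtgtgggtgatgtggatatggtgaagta
These windows lie at chr2:1824481-1824730 (minus strand), chr2:1800473-1800722 (minus), chr3:10255656-10255905 (plus) and chr1:5447881-5448130 (minus). The LHCB2 promoters each hold CCAATC at a like place, beginning 59, 53 and 54 bases before the start of LHCB2.1, LHCB2.2 and LHCB2.3. A G-box 88 bases before the start was found in LHCB2.3 and not in the windows of its paralogues, and LHCB2.1 has an I-box core at 221 bases. LHCB6 has a G-box at 124 bases, an I-box core at 86 bases and no CCAATC in this window. Whether any of these motifs goes with the differences between the repeats was not tested.

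CCAATC was found in 10 of the 20 antenna promoters, in 0 of the 12 of PSI and in 1 of the 9 of PSII, against 10.2% of 27443 Arabidopsis promoters of the same length. The G-box, bound by bZIP and bHLH factors of light signalling, was in 8 of the 41 members (19.5%) against 6.5% of all promoters. The I-box core was in 9 (22%) against 12.3%, the evening element in 1 (2.4%) against 4.8%, and TATAAA in 19 (46.3%) against 47.3%. No motif contains another, and a G-box reads the same on both strands. These shares are descriptions of letters in a window and of these 41 genes alone.

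The highest levels were those of 2 major antenna genes. LHCB1.3 (AT1G29930) stood at 12274 to 17389 FPKM over the 12 libraries, the second highest mean of all genes, and LHCB1.5 (AT2G34420) at 8969.6 to 12904, the fourth. The lowest LHCB1.3 library lay below the highest LHCB1.5 library, while within each library LHCB1.3 was above. LHCB3 (AT5G54270) followed with a mean of 7226 FPKM, LHCA4 (AT3G47470) with 6515 and PSBR (AT1G79040), a small PSII subunit, with 5962, and the ranges of these 3 overlap. PSAO (AT1G08380), a PSI subunit at the site where the major antenna docks, had the highest PSI mean, 4899 FPKM, with PSAL (AT4G12800) at 4729 and PSAF (AT1G31330), which docks plastocyanin, at 4426, again with overlapping ranges.

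Of the 41 genes, 38 had a mean above 1000 FPKM and 3 were far lower. LHCA5 (AT1G45474) and LHCA6 (AT1G19150), which link PSI to the NDH complex of cyclic electron flow, stood at 138 to 238 and 78.7 to 142 FPKM. LHCB4.3 (AT2G40100), also called LHCB8, stood at 2.37 to 22.9, below every library of the other 40 genes. Its paralogues LHCB4.1 (AT5G01530) and LHCB4.2 (AT3G08940) had means of 2885 and 2612 FPKM. Among PSI pairs PSAD2 (AT1G03130) ran at 0.464 of PSAD1 (AT4G02770) without flg22, and PSAE2 (AT2G20260) at 0.364 of PSAE1 (AT4G28750), as geometric means of 6 libraries. In PSII, PSBO2 (AT3G50820) ran at 0.298 of PSBO1 (AT5G66570), while PSBQ2 (AT4G05180) stood above PSBQ1 (AT4G21280), at 1.73 of it.

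**Figure D1:**
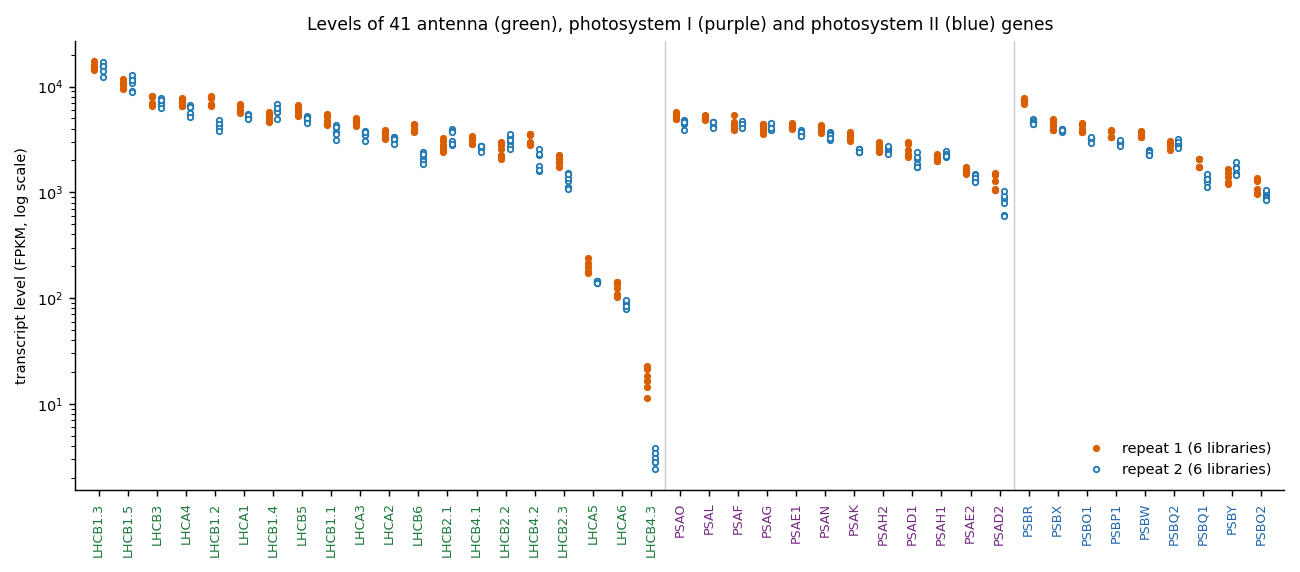
Transcript level in FPKM on a log scale for the 41 genes, with antenna, PSI and PSII genes in sections set apart by grey lines, ordered by mean; each point is a library, filled for repeat 1 and open for repeat 2. LHCB1.3 lies highest and LHCB4.3 lowest, and the open points of LHCB4.3 and LHCB6 lie wholly below the filled ones.

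Assignment of reads is uncertain for several members. LHCB2.1 and LHCB2.2 share 129 stretches of 100 bases, 9.9% and 12.4% of the stretches in each, and genes of the LHCB1 family share 1.5% to 4.4%. Parts of LHCB2.3 (36.3%), PSAG (55.8%), PSAH1 (47%) and PSAE1 (24%) overlap neighbouring genes, and no source used here says whether the reads keep their strand.

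The repeat was the axis along which these genes differed most. In repeat 2, 3 members rose against repeat 1 and 28 fell, where 27.9% of all genes tested were called higher and 24.8% lower (limma over all genes, adjusted p under 0.05, 6 libraries against 6 with the group in the model). The median log2 difference was -0.25 over the 41 members, -0.26 over the antenna, -0.22 over PSI and -0.29 over PSII, against 0.03 over all genes. By class, all 6 LHCA genes and all 5 minor antenna genes fell, and the major antenna split, with 3 of 9 lower and 2 higher. PSI had 8 of 12 lower and 0 higher, and PSII 6 of 9 lower and 1 higher.

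How the libraries are scaled bears on these counts. After quantile normalization 9 members were higher and 15 lower, against 27.8% and 23.6% of all genes, with a members' median of -0.02. Rescaled without MT1A, 7 were higher and 21 lower, against 34.8% and 17.3%, with a median of -0.13 where that of all genes was 0.14. Under the deposited scaling, both of these and median-of-ratios scaling, 3 members were higher every time (LHCB2.1, LHCB2.2 and PSBY) and 15 lower every time. The 15 are LHCA3, LHCA5, LHCA6, LHCB1.2, LHCB2.3, LHCB4.2, LHCB4.3, LHCB6, PSAD1, PSAD2, PSAK, PSBO2, PSBQ1, PSBR and PSBW. Each repeat is a single run of the experiment, so these p-values measure the spread between libraries within the repeats and not between further repeats. MT1A, the early flg22 markers below and the clock genes also differed between repeats, and their part in the result was not tested. CCA1 stood at 68.8 to 107 FPKM in repeat 1 and 28.6 to 49 in repeat 2, and LHY, its partner, at 80.9 to 145 and 12.9 to 22.9.

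**Figure D2:**
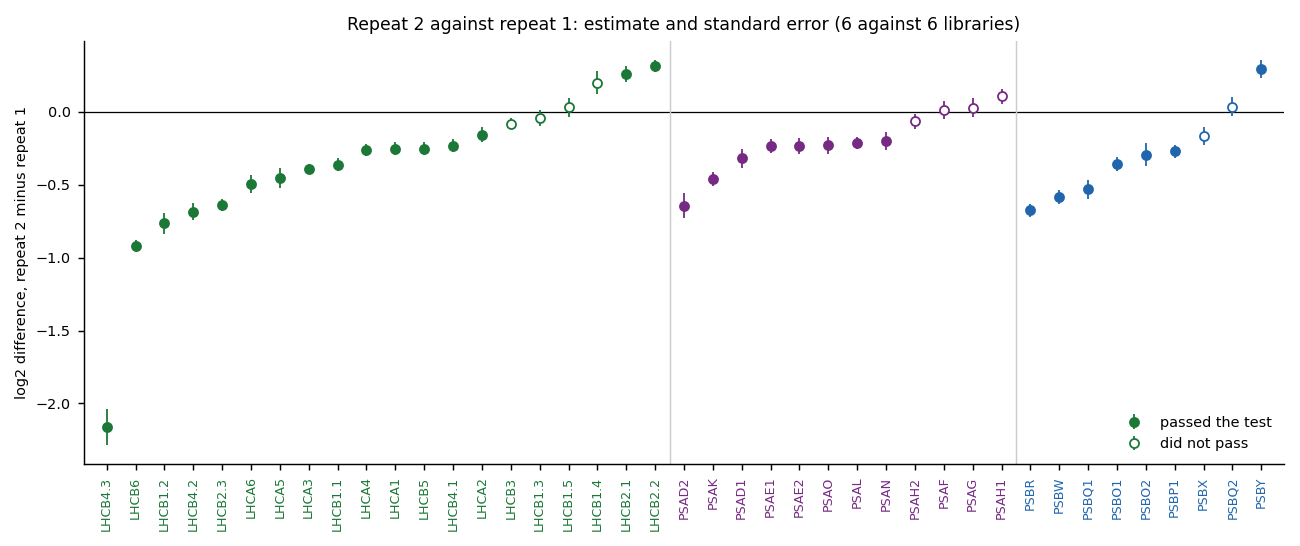
Log2 difference of repeat 2 minus repeat 1 for each gene, with its standard error, from 6 against 6 libraries; filled points passed the test, and green, purple and blue mark antenna, PSI and PSII genes. LHCB4.3 lies lowest at -2.16, and LHCB2.1, LHCB2.2 and PSBY are the filled points above 0.

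Among the minor antenna, LHCB4.3 differed most. It read 11.4, 17.5 and 22.9 FPKM as lowest, median and highest of repeat 1, and 2.37, 2.99 and 3.82 in repeat 2 (log2 -2.16, SE 0.122, adjusted p = 2.43e-05). LHCB6 (AT1G15820, CP24), on chromosome 1 at 5446462 to 5447880 on the minus strand, read 3710.2, 4142 and 4394 and then 1862, 2196 and 2429 (log2 -0.92, SE 0.042, adjusted p = 1.31e-05). In both genes every library of repeat 2 was below every library of repeat 1. The share of all genes whose repeats do not overlap was not counted, here or below. LHCB4.2 read 2831, 3234 and 3526 and then 1589, 2016 and 2550.3 (log2 -0.69, SE 0.0592, adjusted p = 0.000105), also without overlap. LHCB4.1 and LHCB5 (AT4G10340, CP26) fell less, by log2 -0.23 and -0.25, and after quantile normalization their differences were 0.02 and 0.06.

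The major antenna did not move as a unit. LHCB1.2 (AT1G29910) read 6596, 7273 and 8231 FPKM in repeat 1 and 3783, 4382 and 4824 in repeat 2 (log2 -0.77, SE 0.0722, adjusted p = 0.000152). LHCB1.1 (AT1G29920) fell too, with 4359 to 5540.3 in repeat 1 and 3119 to 4363 in repeat 2 (log2 -0.36, SE 0.0447, adjusted p = 0.00049), with ranges that just overlap. LHCB1.3, the most abundant of the family, stayed at 14192 to 17389 and 12274 to 17179 and did not pass (log2 -0.04, SE 0.0537). LHCB1.4 (AT2G34430), LHCB1.5 and LHCB3 did not pass either, at log2 0.20, 0.03 and -0.08. Within a library, where scaling cancels, LHCB1.2 ran at 0.441 to 0.497 of LHCB1.3 in repeat 1 and at 0.252 to 0.309 in repeat 2.

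The LHCB2 genes moved in opposite directions. LHCB2.1 (AT2G05100), on chromosome 2 at 1822990 to 1824480 on the minus strand, read 2423, 2760.1 and 3270.5 FPKM in repeat 1 and 2773, 3401 and 3990.4 in repeat 2 (log2 0.26, SE 0.0549, adjusted p = 0.00597). LHCB2.2 (AT2G05070), on chromosome 2 at 1799234 to 1800472 on the minus strand, read 2066, 2398 and 2981 and 2556, 3065 and 3569.5 (log2 0.32, SE 0.0402, adjusted p = 0.000574). Both were higher in repeat 2 in 6 of 6 groups, with ranges that overlap across groups. Such agreement is common here: 26% of all genes tested were lower in 0 of 6 groups and 21.6% in 6 of 6. Among the members these shares were 7.32% and 61%. LHCB2.3 (AT3G27690), on chromosome 3 at 10255906 to 10257489 on the plus strand, read 1741, 2012 and 2257 and 1069.9, 1316 and 1524, lower in 6 of 6 groups and without overlap (log2 -0.64, SE 0.0443, adjusted p = 4.8e-05). The ratio of LHCB2.3 to LHCB2.1 within a library was 0.633 to 0.789 in repeat 1 and 0.358 to 0.413 in repeat 2, a mean log2 change of -0.90 ± 0.129 (SD, n = 6 pairs). The exact sign-flip permutation test over the 6 pairs gave p = 0.0312, the smallest it allows (2-sided, adjusted p = 0.0535 over 24 ratio tests). The 6 pairs come from the same 2 repeats, and their deviations correlate at 0.57 to 0.81. Between repeats, a ratio p therefore describes agreement among groups and not among further repeats. The ratio tests were added after the data were seen. The ratio of LHCB2.2 to LHCB2.1 was 0.834 to 0.913 in repeat 1 and 0.84 to 0.994 in repeat 2 (exact permutation p = 0.406, adjusted p = 0.443).

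**Figure D3:**
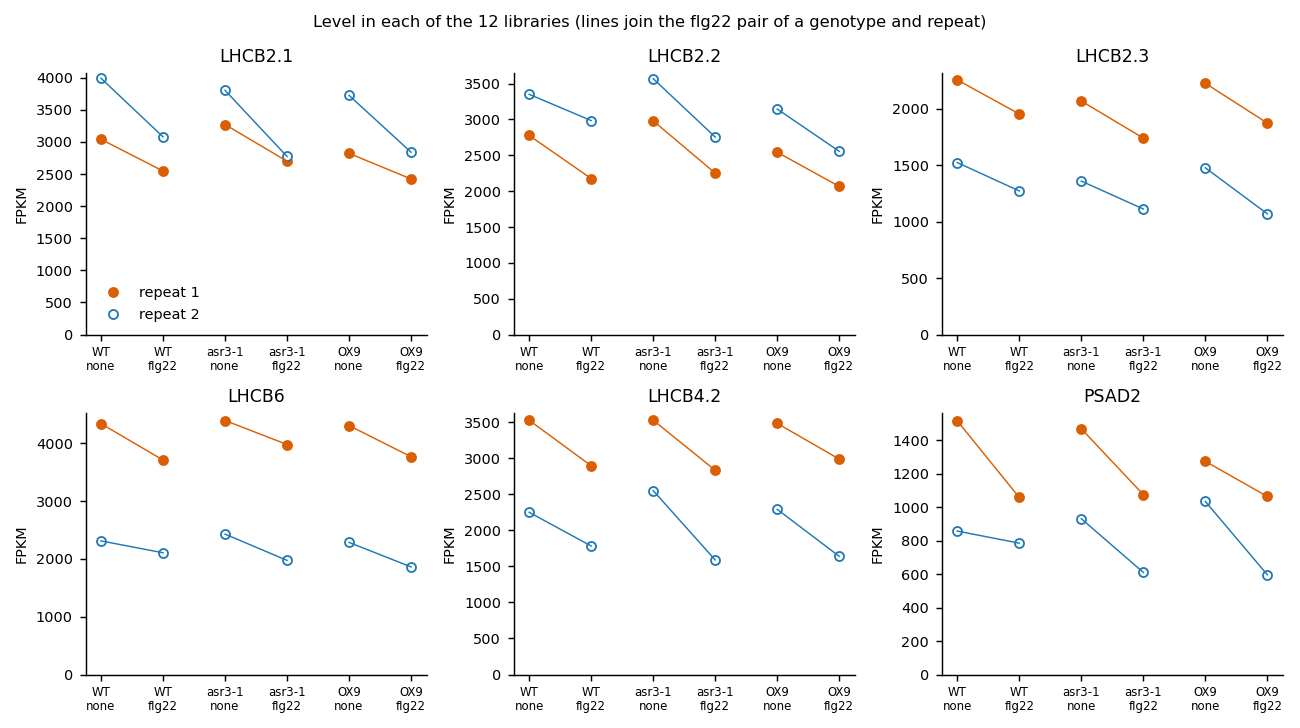
FPKM of 6 genes in each of the 12 libraries by genotype and treatment, filled for repeat 1 and open for repeat 2, with a line joining the libraries without and with flg22 of a genotype and repeat. LHCB2.1 and LHCB2.2 lie higher in repeat 2 and LHCB2.3, LHCB6, LHCB4.2 and PSAD2 lower, and every line slopes down towards flg22.

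All LHCA genes were lower in repeat 2. LHCA6 read 102 to 142 FPKM in repeat 1 and 78.7 to 95.8 in repeat 2 (log2 -0.50, adjusted p = 0.000492), LHCA5 174 to 238 and 138 to 146 (-0.46, 0.00124), and LHCA3 (AT1G61520) 4254 to 5009 and 3063 to 3824 (-0.39, 0.000125). The repeats did not overlap in these 3 genes. LHCA4, LHCA1 (AT3G54890) and LHCA2 (AT3G61470) had log2 differences of -0.26, -0.25 and -0.16, and after quantile normalization these turned to 0.10, 0.10 and 0.11, none of which passed.

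In PSI both gene copies of the ferredoxin-docking subunit PSAD fell. PSAD2 read 1057, 1174 and 1515 FPKM in repeat 1 and 596, 821 and 1033 in repeat 2 (log2 -0.64, SE 0.0835, adjusted p = 0.000615), without overlap. PSAD1 read 2147 to 2991 and 1739 to 2415 (log2 -0.32, SE 0.0634, adjusted p = 0.00443), with overlap, and the PSAD2 to PSAD1 ratio moved from 0.459 to 0.518 down to 0.343 to 0.431 (exact permutation p = 0.0312, adjusted p = 0.0535). PSAK (AT1G30380), which holds LHCA proteins on the core, read 3078 to 3684 and 2392 to 2557 (log2 -0.46, adjusted p = 0.000279). PSAO, PSAL and PSAN (AT5G64040) fell by less, at log2 -0.23, -0.21 and -0.20, and so did the stromal subunits PSAE1 and PSAE2 (-0.23 and -0.23), whose ratio had a mean log2 change of 0.00 ± 0.11 (SD, n = 6 pairs). PSAF, PSAG (AT1G55670), PSAH1 (AT3G16140) and PSAH2 (AT1G52230) did not pass, at 0.01, 0.03, 0.11 and -0.07. After quantile normalization PSAL and PSAN stood at 0.02 and 0.04, and the PSI median at 0.00.

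In PSII the small subunit PSBR, which assists the oxygen-evolving complex, read 6845, 7334 and 7828 FPKM in repeat 1 and 4398, 4544 and 4926 in repeat 2 (log2 -0.68, SE 0.0459, adjusted p = 4.42e-05). PSBW (AT2G30570), which stabilises the PSII supercomplex, read 3337 to 3804 and 2235 to 2525 (log2 -0.59, SE 0.0481, adjusted p = 8.77e-05). The repeats did not overlap in either gene. PSBY (AT1G67740) went the other way, with 1196 to 1649 in repeat 1 and 1468 to 1921 in repeat 2 (log2 0.29, SE 0.0617, adjusted p = 0.00588), and was higher in 6 of 6 groups. PSBX (AT2G06520) did not pass (log2 -0.17, adjusted p = 0.0581).

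In the oxygen-evolving complex, PSBQ1 read 1731 to 2071 and 1117 to 1487 FPKM (log2 -0.53, SE 0.0644, adjusted p = 0.000457), while PSBQ2 read 2498 to 3060.1 and 2632 to 3195 and did not pass (log2 0.04). The ratio of PSBQ2 to PSBQ1 was 1.36 to 1.64 in repeat 1 and 2.06 to 2.37 in repeat 2, without overlap (exact permutation p = 0.0312, adjusted p = 0.0535). PSBO1, PSBO2 and PSBP1 (AT1G06680) fell, at log2 -0.36, -0.29 and -0.27. Of the 12 gene pairs compared by ratio, 9 shifted the same way in 6 of 6 groups between the repeats, each at the smallest p the test allows, and none passed after adjustment. A ratio at this smallest p passes adjustment over the 24 tests only if most of them reach it. Not passing therefore decides nothing about a single ratio.

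After 30 min of flg22, no member passed the test. Averaged over the 3 genotypes, 40 of the 41 members lay below 0, with a median log2 difference of -0.13 against -0.03 over all genes. The median was -0.21 in the antenna (20 of 20 below 0), -0.08 in PSI (11 of 12) and -0.13 in PSII (9 of 9). Of all genes tested 4.1% passed, 795 of them higher and 55 lower. The members' median was -0.07, -0.07, -0.08 and -0.09 without the untreated repeat 1 library of WT, asr3-1 or OX9 and without the flg22 library of OX9 of repeat 2. The antenna median was -0.10 to -0.11 without any of these 4 and without the flg22 library of asr3-1 of repeat 2. Without 1 library the PSI median ranged from -0.13 to -0.04 and the PSII median from -0.19 to -0.05. These fits had no term for the repeat, so leaving out 1 library left the repeats unequal between treatments. With such a term the members' median without 1 library lay between -0.101 and -0.16. In the main fit, also with no term for the repeat, unadjusted p was under 0.05 for 4 members (9.76%), against 15.2% of all genes. Differences between the repeats enter the spread of that fit, so these shares do not rank the members' response against other genes. All 4 were of the major antenna: LHCB3 (log2 -0.21), LHCB2.1 (-0.33), LHCB1.5 (-0.24) and LHCB2.2 (-0.32), with adjusted p of 0.242, 0.244, 0.26 and 0.319. Limma without trend and robust moderation gave 0 as well.

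With the repeat as a block, 13 members fell and 0 rose, where 5.69% of all genes were called lower. They were 10 of the 20 antenna genes (LHCA3, LHCA4, LHCA6, LHCB1.1, LHCB2.1, LHCB2.2, LHCB2.3, LHCB3, LHCB4.2 and LHCB6), 2 of the 12 PSI genes (PSAD1 and PSAD2) and 1 of the 9 PSII genes (PSBY). Leaving out each library in turn gave 7 to 16, and 7 of the 13 passed every time: LHCB1.1, LHCB2.1, LHCB2.2, LHCB2.3, LHCB3, LHCB4.2 and PSAD2. The 7 came without the flg22 library of OX9 of repeat 2, where 2.26% of all genes were called lower. Without the untreated OX9 library of repeat 2 the count was 8 (2.28% of all genes), and the 16 came without the flg22 library of WT of repeat 2 (2.63%). Whether antenna genes differ from the photosystem genes in this respect was not tested.

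Scaling decides how the fall reads against other genes. With median-of-ratios scaling and the block, 14 members fell (5.63% of all genes), and rescaled without MT1A 33 (10.4%). Rescaling without MT1A sets the FPKM sum of all other genes equal in every library. It moved the median of all genes from -0.03 to -0.12. Rescaled without MT1A and with no block, LHCB3 alone was lower, with 0.347% of all genes. With quantile normalization and the block 6 fell, where 16.2% of all genes did, so the members' count of 6 of 41 was near the background. Quantile normalization moved the median of all genes from -0.03 to -0.13 and that of the members to -0.02: 38 of 41 members lay below the all-gene median on the deposited scale and 14 of 41 after it. LHCA6, LHCB4.2 and PSAD2 were called lower with the block under all 4 scalings.

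LHCB4.2 had the largest fall in the antenna past the block test. Its FPKM in WT changed from 3525 to 2894 in repeat 1 and from 2249 to 1782 in repeat 2. The asr3-1 libraries changed from 3526 to 2831 and from 2550.3 to 1589, and in OX9 from 3482 to 2987 and from 2290.4 to 1639. Within each repeat all 3 libraries with flg22 were below all 3 without it (log2 -0.39, SE 0.0592 and adjusted p = 0.00667 with the block, 0.256 and 0.624 without it). PSAD2 went from 1515 to 1057 and from 857 to 784 FPKM in WT, and in OX9 from 1273 to 1063 and from 1033 to 596, while asr3-1 ran from 1468 to 1074 and from 930.3 to 609.9. It too was lower in 6 of 6 pairs (log2 -0.46, adjusted p = 0.0116 with the block and 0.484 without it).

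The LHCB2 genes, which diverged between repeats, all fell with flg22 in the fit with the block on the deposited scale. With quantile normalization and the block, no LHCB2 gene was called. LHCB2.2 went from 2777 to 2176 and from 3351 to 2985 FPKM in WT, from 2981 to 2252 and from 3569.5 to 2755 in asr3-1, and from 2543 to 2066 and from 3146 to 2556 in OX9, for repeats 1 and 2. Its mean was 3061 ± 375 FPKM without flg22 and 2465 ± 361 with it (SD, n = 6), and the block gave adjusted p = 0.00409. LHCB2.1 and LHCB2.3 had log2 differences of -0.46 to -0.22 and -0.47 to -0.21 over the 6 pairs, means -0.33 and -0.29 (adjusted p = 0.00896 and 0.00695 with the block). All 3 were lower in 6 of 6 pairs, and the ratios of LHCB2.3 and LHCB2.2 to LHCB2.1 changed by a mean log2 of 0.04 ± 0.0889 and 0.01 ± 0.133 (exact permutation p = 0.312 and 0.906, adjusted p = 0.357 and 0.945).

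The other antenna genes past the block test had small falls, and of them LHCA6 alone was also called with quantile normalization and the block. LHCB1.1 had a mean of 4783 ± 651 FPKM without flg22 and 3994 ± 617 with it (log2 -0.26), LHCB3 7765 ± 379 and 6688 ± 280.0 (-0.21), and LHCA4 6985 ± 601 and 6046 ± 752 (-0.21; SD, n = 6 each). Their adjusted p with the block was 0.00949, 0.00949 and 0.017. LHCB6, LHCA6 and LHCA3 had log2 differences of -0.21, -0.22 and -0.14 (0.0149, 0.0461 and 0.0327). LHCB1.5 missed the threshold (log2 -0.24, 0.0505), and LHCB1.2 and LHCB1.3 stood at -0.02 and -0.07. LHCB1.1 ran at 0.304 of LHCB1.3 without flg22 and 0.265 with it, lower in 6 of 6 pairs (exact permutation p = 0.0312, adjusted p = 0.0535).

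In PSI, PSAD1 fell in 6 of 6 pairs, by log2 -0.48 to -0.13 (mean -0.32, adjusted p = 0.0161 with the block). The other 10 PSI genes did not pass and ranged from -0.12 for PSAH2 to 0.05 for PSAE2, the member above 0. In PSII, PSBY had log2 -0.25 (adjusted p = 0.0347). PSBO2 had -0.24 and did not pass (0.0734), and PSBR, which differed so much between repeats, had -0.01. With quantile normalization and the block, PSAD1 and PSBY were not called and PSBO2 was.

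**Figure D4:**
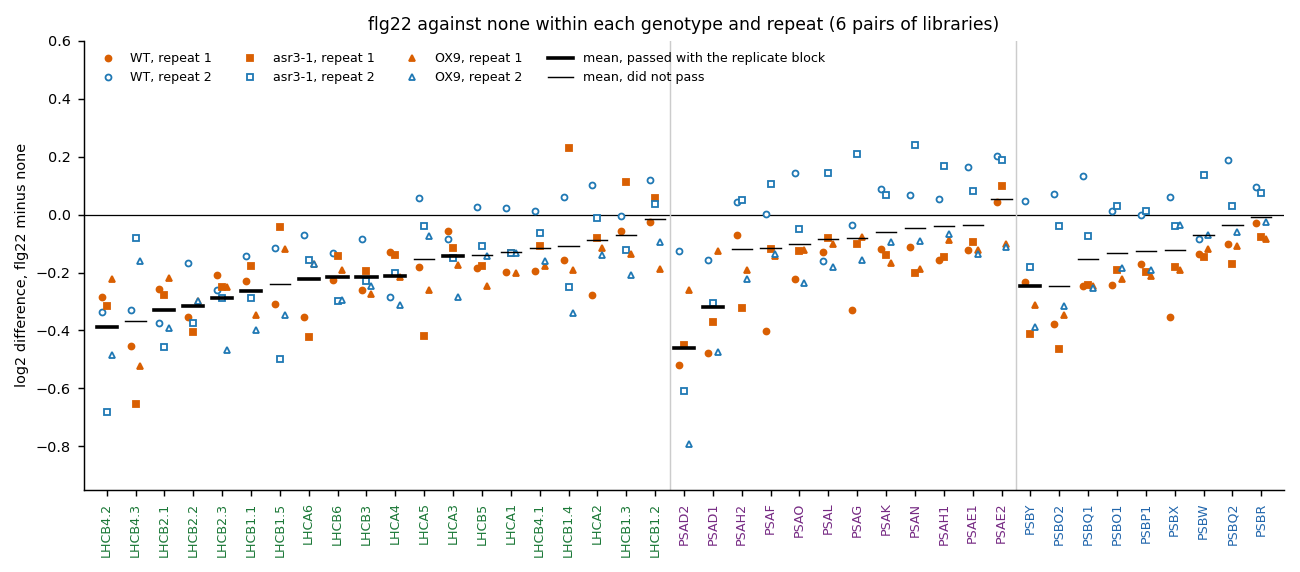
Log2 difference of flg22 minus none within each of the 6 pairs of libraries for each gene, by genotype (symbol) and repeat (filled or open), with the mean as a bar that is thick where the gene passed with the replicate block. Antenna points lie below 0 in most pairs, while PSI and PSII points of WT and asr3-1 in repeat 2 lie around 0.

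The pairs differed in how far the fall extended. In repeat 1, 40 of 41 members were below 0 in WT, 37 in asr3-1 and 41 in OX9, with medians of -0.21, -0.17 and -0.19. Of all genes 51.9, 52.4 and 50.7% were below 0 in these pairs. In repeat 2 the counts were 18, 26 and 41 (43.9, 63.4 and 100%), with medians of 0.01, -0.06 and -0.18, against 47.9, 54.5 and 52.1% of all genes. The antenna was below 0 in 13 of 20 genes in WT, 19 in asr3-1 and 20 in OX9 of repeat 2, while PSII counted 1, 4 and 9 of 9 and PSI 4, 3 and 12 of 12. Tested gene by gene, the flg22 response differed between the repeats in 0 of the 41 members, where 11.3% of all genes passed, and 6 members had unadjusted p under 0.05. The share of all genes at that unadjusted level was larger, 22.7% against 14.6% of the members. Without the flg22 library of OX9 of repeat 2, PSBO2 and PSAN were called higher (8.39% of all genes were), and 6 members were lower after quantile normalization (6.34%) and 7 when rescaled without MT1A (8.71%). Over the 6 pairs, 14 of 41 members (34.1%) were below 0 every time, 12 of them antenna genes and 2 of PSI, against 10.8% of all genes.

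The response differed in strength between repeats as well. The 8 early flg22 markers summed to 65.43 to 102.4 FPKM without flg22, and with it to 409.4 to 655 in repeat 1 and 2053 to 3012 in repeat 2. The 17 root markers summed to 905.7 to 2067 FPKM without flg22 and 1344 to 1680 with it, and 0 of the 16 that were tested passed. CCA1 and LHY, named here after their values were seen, were lower with flg22 in 6 of 6 pairs, at log2 -0.41 and -0.45 (adjusted p = 0.00441 and 0.00627 with the block, 0.842 and 0.984 without it). The part of these differences, and of any difference in harvest time or handling, in the fall of the antenna genes was not tested.

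Summed, the 41 genes took 14.7 to 17.3% of the FPKM of a library without flg22 and 11.3 to 15.8% with it, and the share was lower with flg22 in 6 of 6 pairs. With MT1A left out of the sum, the shares were 16.9 to 17.6% and 13.5 to 16.1%, which do not overlap. The antenna made up 56.6 to 61.6% of the members' FPKM, PSI 23 to 26.3% and PSII 15.4 to 18.5%. With flg22 in repeat 2 the antenna part went from 59.9 to 58% (WT), 61.6 to 56.9% (asr3-1) and 58.3 to 56.6% (OX9). In repeat 1 it went from 56.9 to 57.2%, 58 to 59.5% and 57.7 to 56.9%, in the same order. The flg22 libraries of WT and asr3-1 of repeat 2 had the highest FPKM sums, and a share also falls when the sum rises. In WT of repeat 2 the members' share went from 14.9 to 11.9%, and without MT1A from 17.1 to 14.2%. Yet only 18 of 41 members were below 0 in that pair (median log2 0.01). In asr3-1 of repeat 2, 26 were (median -0.06), and in the other pairs 37 to 41. Lower shares in every pair therefore do not show a like fall of the genes.

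**Figure D5:**
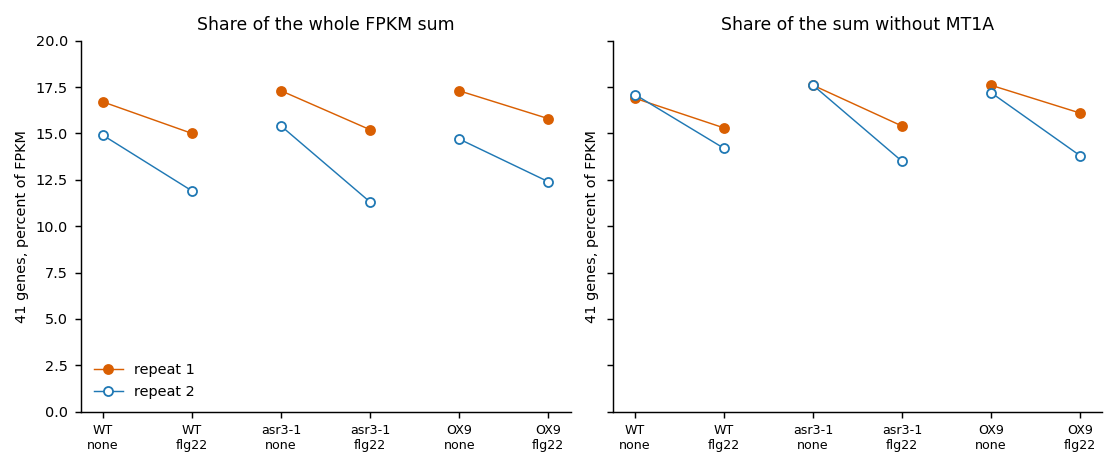
Share of a library's FPKM taken by the 41 genes, in percent, of the whole sum (left) and of the sum without MT1A (right), for each genotype without and with flg22; filled points are repeat 1 and open points repeat 2, and lines join pairs. Every line falls, and a share also falls where the library's FPKM sum rises, as in WT and asr3-1 of repeat 2. Without MT1A the untreated libraries of both repeats lie between 16.9 and 17.6%.

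Within single genotypes, with 2 libraries against 2, no member passed the flg22 test. All-gene shares called were 0.101% in WT, 0.193% in asr3-1 and 0% in OX9, and 0 members had unadjusted p under 0.05 in any of the 3. The members' medians were -0.09 in WT, -0.13 in asr3-1 and -0.19 in OX9, where 41 of 41 lay below 0. With the block 1 member passed, LHCB2.2 in asr3-1 (log2 -0.39, adjusted p = 0.0464), where 0.222% of all genes were called lower. Other scalings with the block called LHCA5 and LHCA6 (quantile, 0.853% of all genes), LHCB2.2 (median-of-ratios, 0.207%) and LHCA6, LHCB2.2, LHCB3 and PSBY (without MT1A, 0.752%).

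The question of the genotypes is whether ASR3 bears on these levels. No member passed the test between asr3-1 and WT without flg22 or with it, where 0% and 0% of all genes were called, nor between OX9 and WT, where 0.00964% and 0.00482% were. No member had unadjusted p under 0.05 in these 4 comparisons. Member differences ran from -0.22 to 0.15 and from -0.19 to 0.22 in asr3-1, and from -0.23 to 0.15 and from -0.21 to 0.07 in OX9, without and with flg22. Their median SE was 0.215, and 0.0925 with the replicate block, which gave 0 calls too, with LHCB2.3 in asr3-1 against WT with flg22 (log2 -0.18) at unadjusted p under 0.05. With flg22, 38 of 41 members were lower in OX9 than in WT (median -0.09), and without it 17 (median 0.00), and by repeat it was 19 of 41 in the flg22 pair of repeat 1 (median 0.01, 49.2% of all genes) and 40 of 41 in that of repeat 2 (median -0.18, 56.4% of all genes).

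The flg22 response of each line against that of WT, the test of the difference itself, passed in 0 members for asr3-1 (median -0.03, 0% of all genes) and in 0 for OX9 (median -0.09, 0% of all genes), with 0 at unadjusted p under 0.05. These comparisons share the WT libraries. The median SE was 0.305, and 0.131 with the replicate block, which gave 0 calls as well, so a difference of response as small as the members' median change was not detectable at this replication.

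Other genes of photosynthesis give the setting. Their counts are on the deposited scale, and with the block 5.69% of all genes were called lower and 2098 of 20753 higher. After quantile normalization the flg22 medians were -0.36 for Calvin cycle, -0.38 for chlorophyll synthesis and -0.27 for electron carrier genes. They were -0.29 for other thylakoid genes and -0.48 for regulators, where the members stood at -0.02 and all genes at -0.13. How the members stand against these lists therefore depends on the scaling. Of 16 Calvin cycle genes all lay below 0 with flg22 (median -0.23), 0 passed and 8 fell with the block, among them GAPA (log2 -0.34, adjusted p = 0.00949), a glyceraldehyde-3-phosphate dehydrogenase subunit, and PRK, phosphoribulokinase (-0.37, 0.00955). Of 16 chlorophyll synthesis genes 1 rose and 1 fell, and with the block 1 and 8. HEMA2, a glutamyl-tRNA reductase, rose from 8.04 to 10.4 FPKM without flg22 to a range of 23.2 to 179 with it (log2 2.73, adjusted p = 0.0259), and GUN4, which aids magnesium chelatase, fell (-0.60, 0.0181). CAO, which makes chlorophyll b for the antenna, had -0.71 and CRD1 -0.33, past the test with the block (0.0089 and 0.00549). Of 13 electron carrier and ATP synthase genes 0 passed and 2 fell with the block, PETE1, a plastocyanin (-0.33, 0.0103), and ATPD (-0.27, 0.0268).

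Of 15 other thylakoid and photoprotection genes 1 fell with flg22, STN8, the kinase of PSII core proteins (log2 -0.40, adjusted p = 0.0418). The block added STN7, the kinase that phosphorylates the major antenna (-0.19, 0.0473). Of 24 regulators 22 lay below 0 (median -0.35), and PIF1, a bHLH repressor of chlorophyll genes, passed (-0.87, 0.0156). With the block 13 fell, among them GLK1 and GLK2, activators of antenna and chlorophyll genes that are named here after their values were seen (-0.34 and -0.74, adjusted p = 0.0288 and 0.034 with the block). All 8 early flg22 markers were above 0 and 6 rose (8 with the block), among them WRKY33 (4.05, adjusted p = 0.0169) and CYP81F2 (5.40, 0.00723).

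Between the repeats the same lists were mixed, where 24.8% of all genes tested were called lower and 27.9% higher. Photoprotection genes were the furthest apart of those named: ELIP1 and ELIP2, chlorophyll-binding relatives of the antenna that accumulate in strong light, read 36.4 to 78 and 36.6 to 109 FPKM in repeat 1 and 0.725 to 2.62 and 0.385 to 2.19 in repeat 2 (log2 -4.17 and -4.71, adjusted p = 1.5e-05 and 1.27e-05). PSBS, which triggers the dissipation of excess light in PSII, read 1440.0 to 1820.0 and 731 to 891 (-0.95, 5.67e-05). That list had 9 of 15 lower and 1 higher. Calvin cycle genes had 7 of 16 lower and 3 higher, with the aldolase FBA1 at -0.78 and the transketolase TKL1 at 0.66, and electron carriers 6 of 13 lower and 4 higher, with the ferredoxin FD1 at -0.66 and ATPC1 at 0.49. Chlorophyll synthesis genes had 4 of 16 lower and 6 higher, with CHLM at -0.39 and PORC at 0.46, and regulators 6 of 24 lower and 7 higher. Of 16 root markers 2 were lower and 2 higher. These counts are on the deposited scale and move with scaling. After quantile normalization chlorophyll synthesis had 1 lower and 6 higher, Calvin cycle 4 and 3, electron carriers 4 and 4. Photoprotection genes then had 8 and 1, and regulators 5 and 7. Rescaled without MT1A, the lower and higher counts were 1 and 9, 6 and 4, 5 and 5, 7 and 2, and 4 and 10, in the same order.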

How the data were processed

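RNA of whole seedlings was sequenced in 12 libraries, 6 groups of 2. The deposited values are FPKM per gene, per the file headers. TAIR10 is the build per the submitters' processing notes, which also list Cuffdiff 2.2.1, TopHat2 2.0.12, cutadapt 1.0 and bcl2fastq 1.8.4 with no role for any. No counts are given, so depth is unknown beyond an estimate from the lowest values, and no counting intervals are possible. Of 34066 lines, 693 without identifier and 176 of 88 repeated identifiers were left out.

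The 20753 genes that reached 1 FPKM in 2 or more libraries were tested with limma 3.58.1 in R 4.3.3 on log2(FPKM + 1), which understates changes of low genes, with a mean per group, trend and robust moderation, and Benjamini-Hochberg adjustment over all genes at 0.05, 2-sided. The script was tested on simulated data. Summaries used Python 3.11.15. Deviations of same-numbered libraries from their group means correlated at 0.57 to 0.81 in all 15 pairs of groups, and the design text calls the repeats independent, so the number pairs samples and the block values are given. Each library is a pool, so p-values measure the spread between pools.

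The 41 members and the gene lists were chosen with earlier results of these data known, and ratio tests of gene copies were added after the data were seen. All members may be named, and from each other list up to 4 genes with the smallest unadjusted p. Alternatives were the pseudocount (0.1 and 5), the filter, quantile, median-of-ratios and MT1A-free scaling, the block, plain limma, fits on the groups compared alone and each library left out. Promoters and positions are from TAIR10.1, since the files hold no coordinates.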

Additional observations from a re-analysis of the deposited data

How the results depend on the processing

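For flg22 over the 3 genotypes, 0 members were called lower without a block, 1 when rescaled without MT1A and 13 with the replicate block, and with block and scaling together 6 (quantile), 14 (median-of-ratios) and 33 (without MT1A). Leaving out each library gave 0 without the block, and with it 7 to 16: 7, 8, 16, 11 in 2 fits and 10 in the other 7. The members' median moved from -0.13 to -0.02 with quantile normalization and to -0.23 without MT1A, with or without the block. Without 1 library it lay between -0.072 and -0.191 with no block, where the repeats are then unequal between treatments. With the block it lay between -0.101 and -0.16. In asr3-1 alone the count went from 0 to 1 with the replicate block, and to 2, 1 and 4 with quantile, median-of-ratios and MT1A-free scaling added. The block changed no other call of a member.

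Between repeats, quantile normalization gave 9 higher and 15 lower with a median of -0.015 (antenna 0.042, PSI 0.002), and turned the sign of LHCA1 (0.10), LHCA2 (0.11), LHCA4 (0.10), LHCB4.1 (0.021), LHCB5 (0.063), PSAL (0.02) and PSAN (0.04). Without MT1A 7 were higher, with a median of -0.13. For the difference of the flg22 response between repeats, 6 and 7 members were lower with quantile and MT1A-free scaling (6.34% and 8.71% of all genes), and leaving out libraries gave 0 to 2 higher (8.39% of all genes in the fit with 2). The cause of these shifts was not tested. Pseudocounts, filters and plain limma moved no count of called members by over 1.5 times. Fits on the groups compared alone gave 0 called members. FPKM without counts or strand limits what can be said of overlapping genes and near copies, and 2 repeats limit what can be said of either.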
